A study of Drosophila melanogaster with 8 samples.

Results

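Male and female Malpighian tubules of the European population were compared in 4 of the 8 RNA-seq libraries of the series. These are the European libraries by their labels, namely replicates 1 and 2 of the females (EF1 and EF2) and replicates 1 and 2 of the males (EM1 and EM2). The flies descended from 12 isofemale lines of Drosophila melanogaster from The Netherlands, carried no transgene or induced mutation that the sources name, and lived at 22° under a day of 14 hr and a night of 10 hr. Each library pooled the tubules of 5 pairs per line, so differences among lines within a pool were not measured. The age was 2 to 4 days per the labels and 4 to 6 days per the study's methods. The other 4 libraries hold African females (AF1 and AF2) and African males (AM1 and AM2), raised alike from 11 lines of Zimbabwe with 6 pairs per line. The main European fit did not use them, and their values were set beside the European ones. They also entered the sex-by-population term and an alternative fit that shared the spread over 8 libraries. The question was which genes differ in expression between the sexes in a single population, in an organ that both sexes use for the same task.

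Malpighian tubules are the excretory and osmoregulatory organs of insects. They take ions, water, metabolic waste and foreign compounds from the hemolymph and pass a primary urine to the gut. In the main segment, principal cells carry a proton pump, the V-ATPase, which energizes cation transport, and the smaller stellate cells pass chloride and water. Tubules are also rich in enzymes that oxidize and conjugate toxins and hormones, and they take part in the immune response.

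The libraries held 19528634 to 27099855 reads over 13942 genes, and 7981 to 8302 genes were above 1 RPKM (reads per kilobase of transcript, scaled to the size of the library). Identity markers of the tubule were abundant in all 4: the urate oxidase gene Uro was at 2185 and 2196 RPKM in females and 1899.6 and 1886 RPKM in males, and the pump gene Vha55 at 1003 and 969 RPKM and 911 and 818 RPKM. The median absolute log2 difference across genes was 0.139 between the female libraries and 0.139 between the male libraries, and 0.197 to 0.21 between libraries of different sex. Pearson's r of log2 values across genes was 0.987 and 0.988 within the sexes and 0.955 to 0.963 between them. Genes are not independent replicates. The labels call the libraries replicates and the methods call them biological. The p-values below rest on the spread between 2 pools per sex, moderated by the spread of other genes. In the European fit this gave 2 residual and 2.69 prior degrees of freedom. Both pools of a sex drew on the same lines, so the p-values do not measure the spread among lines. No library was set apart by depth. EF1 stood apart in 10 genes of the oenocytes, cells under the cuticle that make hydrocarbons, whose geometric mean was 13.6 RPKM there, 6.36 in EF2, 5.66 in EM1 and 4.58 in EM2.

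A total of 11830 genes reached the minimum of 12 reads summed over EF1, EF2, EM1 and EM2, and 954 of them (8.06%) differed between European males and females at a false discovery rate of 5% and are referred to as called. Male-biased genes outnumbered female-biased ones, with 719 (6.08%) called higher in males and 235 (1.99%) called higher in females. These shares are the background for the counts of list members below, and a few called members say little about a list. The test was limma on log2(RPKM + 0.1), so fold changes of genes near or below 0.1 RPKM are understated. Without adjustment 1569 genes of male bias and 1200 of female bias passed p under 0.05, and both male libraries lay above both female libraries for 26.4% of genes, and both females above both males for 27.9%. The median log2 difference (male over female) of all genes tested was -0.011. With only 2 libraries a sex the counts depended on each library: 78 genes were called without EF1, 13 without EF2, 0 without EM1 and 0 without EM2. Before adjustment p was under 0.05 for 1304 male-biased and 905 female-biased genes without EM1, and for 1286 and 751 without EM2. This holds for every list below, so that calls are those of the 4 libraries together. An exact permutation test of a single gene, 2 libraries against 2, cannot go below p = 0.333 (two-sided).

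**Figure D1:**
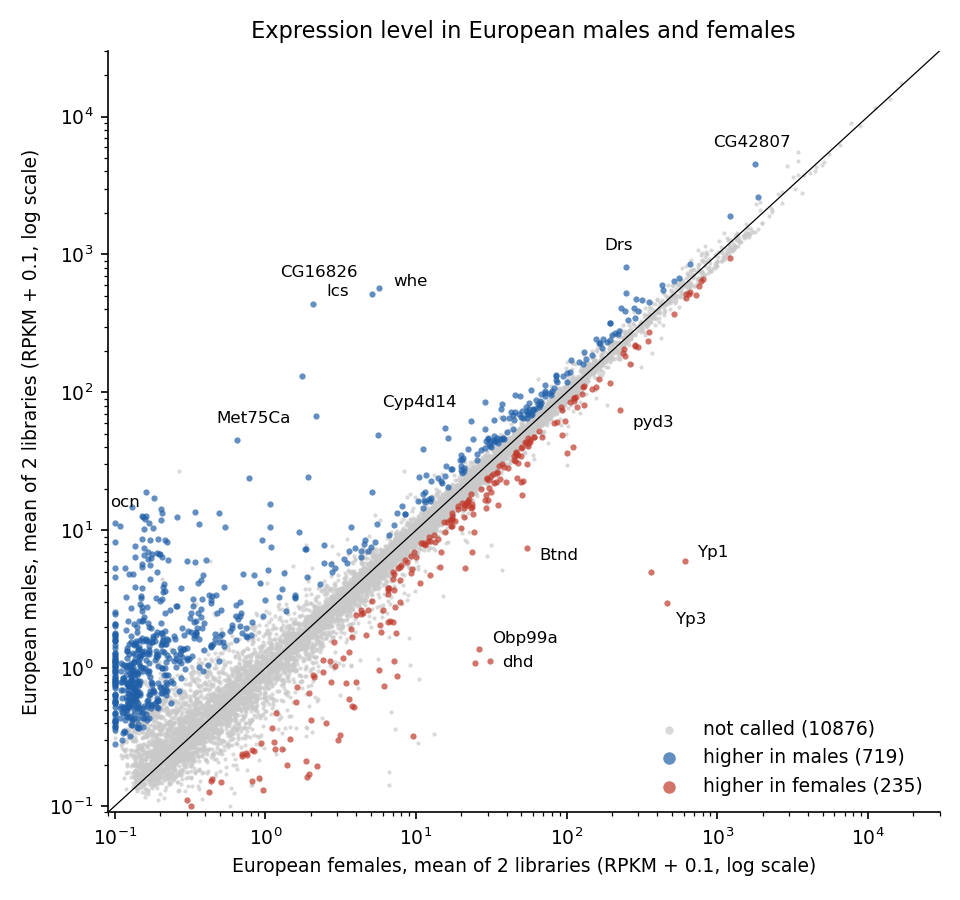
Mean RPKM plus 0.1 of each gene tested in European females (x axis) and European males (y axis), both on log scales, each the mean of 2 libraries, with called genes in blue (719, higher in males) and red (235, higher in females). Most of the blue points lie at the left edge, near 0 RPKM in females, whereas the red points follow the diagonal at higher levels.

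Male bias and female bias differed in size and level. The male-biased genes had a median fold change of 4.80 (4.93 with the 74 genes that had 0 reads in females set at their lower bounds), and 562 of them differed by more than 2-fold, 418 by more than 4-fold and 200 by more than 8-fold. Their median level was 0.877 RPKM over the 4 libraries, and 356 of them (49.5%) rested on fewer than 100 reads. The female-biased genes had a median fold change of 1.62 and a median level of 15 RPKM. Only 86 of them differed by more than 2-fold, and 20 (8.51%) had fewer than 100 reads. Below 1 RPKM, 383 of 3626 genes were male-biased and 27 female-biased. From 10 to 100 RPKM the numbers were 114 and 103 of 3551 genes, and above 100 RPKM they were 49 and 34 of 852. When the minimum was raised to 100 reads, 333 male-biased and 173 female-biased genes were called of 8843.

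The steepest female bias belonged to genes of yolk and fat body. The yolk proteins encoded by Yp1, Yp2 and Yp3 are secreted into the hemolymph by the fat body and are also made by ovarian follicle cells. Yp3 was at 525 and 403 RPKM in females and 4.6 and 1.15 RPKM in males (log2 difference -7.57, standard error 0.63, adjusted p = 0.00766). Yp1 was at 699 and 518 RPKM in females and 8.86 and 2.93 RPKM in males (log2 difference -6.85, standard error 0.53, adjusted p = 0.00732), and Yp2 at 436 and 291 RPKM and 6.92 and 2.9 RPKM (log2 -6.28, adjusted p = 0.00616). All 3 were well above 0 in both male libraries, with EM1 above EM2. The satiety peptide gene fit, known from female fat body, was at 31.3 and 18 RPKM in females and 1.4 and 0.566 RPKM in males (log2 -4.57, adjusted p = 0.0121). The odorant-binding protein gene Obp99a was at 28.1 and 24.3 RPKM and 0.651 and 1.9 RPKM (log2 -4.42, adjusted p = 0.0137), with EF1 above EF2 as for fit and the yolk genes. Of 21 genes listed for yolk and fat body, 7 were called higher in females and 1, Obp44a, in males, with a median log2 difference of -0.63. The others called were Lsp2, a storage protein gene (log2 -3.09, adjusted p = 0.0108), and apolpp, which encodes the main lipid carrier of the hemolymph (log2 -1.76, adjusted p = 0.0453). Summed over the list, the level was 1985 RPKM in EF1, 1499 in EF2, 249 in EM1 and 371 in EM2. In bulk RNA, fewer cells of a type and less RNA per cell cannot be told apart.

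Ovary and eggshell genes were the other group with steep female bias, at low levels. The thioredoxin gene dhd, which acts in the egg, was at 20.5 and 41.2 RPKM in females and 1.29 and 0.779 RPKM in males (log2 difference -4.72, standard error 0.40, adjusted p = 0.00778). The yolk receptor gene yl was at 1.58 and 2.02 RPKM and 0.0782 and 0.0474 RPKM (log2 -3.54, adjusted p = 0.00687), and Pxt, which encodes a peroxidase of follicle maturation, at 2 and 2.21 RPKM and 0.11 and 0.0791 RPKM (log2 -3.51, adjusted p = 0.00606). The posterior determinant gene osk was at 3.23 and 2.61 RPKM and 0.242 and 0.165 RPKM (log2 -3.32, adjusted p = 0.00712). For these 4 genes both female libraries lay above both male libraries by more than 4-fold, and EF2 was higher than EF1 for dhd, yl and Pxt and lower for osk. The chorion gene Cp38 was at 3.48 and 15.5 RPKM in females and 0.239 and 0.206 RPKM in males (log2 -4.54, adjusted p = 0.0318), and its female libraries were 4.45-fold apart. Of 44 listed genes of ovary and eggshell, 13 were called higher in females and 1 in males, with a median log2 difference of -1.72, and 35 had both female libraries above both males, against 27.9% of all genes tested. The gene called higher in males was exu, which acts in mRNA localization in oocytes and in spermatogenesis, at 4.52 and 4.45 RPKM in females and 8.27 and 8.41 RPKM in males (log2 0.88, adjusted p = 0.0116). The sums over the list were 113 RPKM in EF1, 220 in EF2, 61.0 in EM1 and 60.5 in EM2. The part of ovary RNA in the female calls was not tested. The study picked osk, dhd and the yolk genes from the libraries of this series, so that these counts are not independent evidence of direction.

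Cyclin genes moved in the same direction as the ovary genes. CycB, a mitotic cyclin gene, was at 6.18 and 7.99 RPKM in females and 1.04 and 1.01 RPKM in males (log2 difference -2.66, standard error 0.18, adjusted p = 0.00606), and CycA at 3.42 and 4.43 RPKM and 0.732 and 0.648 RPKM (log2 -2.34, adjusted p = 0.0083). CycB3 followed at 0.568 and 0.909 RPKM and 0.121 and 0.179 RPKM (log2 -1.73, adjusted p = 0.0468). All 3 were higher in EF2 than in EF1, as was the sum of the ovary list. Among 36 listed cell division genes these 3 were called higher in females and 0 in males, 15 and 0 passed p under 0.05 before adjustment, and the median log2 difference was -0.34. CycB3 was called in 4 of 10 alternatives (adjusted p 0.0238 to 0.0796). Voom, a limma method on the reads worked back from RPKM, called 6 of the 36.

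Btnd, a biotinidase gene, had the smallest adjusted p of all 235 female-biased genes. It was at 57.3 and 51.6 RPKM in females and 8.07 and 6.62 RPKM in males (log2 difference -2.88, standard error 0.11, adjusted p = 0.00373), with no overlap and little spread within a sex. Fad2, a desaturase gene of female pheromone synthesis in oenocytes, was at 22.6 and 3.46 RPKM in females and 0.341 and 0.131 RPKM in males (log2 difference -4.82, adjusted p = 0.0522) and was not called. The female libraries were 6.53-fold apart for Fad2, in the order of the oenocyte list above. Its call depended on the fit, since the adjusted p was 0.0245 when all 8 libraries shared an estimate of the spread. The elongase gene eloF, also of pheromone synthesis, was at 3.29 and 0.593 RPKM and 0.213 and 0.276 RPKM and was not called (adjusted p = 0.194).

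**Figure D2:**
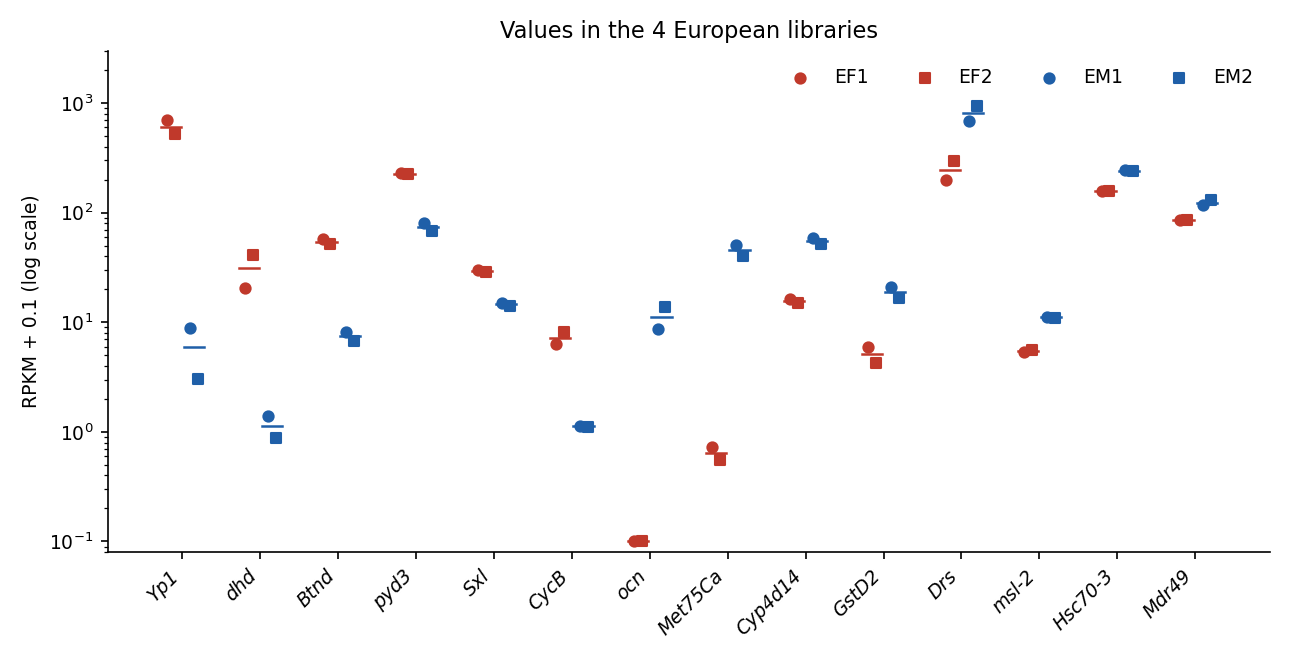
RPKM plus 0.1 on a log scale for 14 genes named in the text in each of the 4 European libraries, with a bar at the mean of each sex (females red, males blue; circles replicate 1, squares replicate 2). For every gene shown both libraries of a sex lie on the same side of both libraries of the other, and the gap is far wider for Yp1, dhd, ocn and Met75Ca than for Sxl, msl-2, Hsc70-3 and Mdr49.

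Of all the lists, that of testis and sperm had the most genes called higher in males. Its genes with 0 reads in females passed the minimum of 12 reads through the males alone. Of 48 listed genes 35 were called higher in males and 0 in females, with a median log2 difference of 3.68 (4.09 with the 5 genes at 0 reads in females at their lower bounds). The sums over the list were 14.1 RPKM in EF1, 14.9 in EF2, 209 in EM1 and 276 in EM2, and the geometric means 0.146, 0.129, 2.54 and 2.88 RPKM. The sperm gene ocn had 0 reads in both female libraries and was at 8.51 and 13.7 RPKM in males (adjusted p = 0.004), at least 109-fold higher against a floor of 3 reads over both females. Mst84Dd, of a gene family for proteins of the sperm tail, also had 0 reads in females and was at 6.58 and 9.63 RPKM in males, at least 53.0-fold higher (adjusted p = 0.004). Its neighbor Mst84Db had 1 read in females and was at 11.7 and 13.6 RPKM in males (adjusted p = 0.00606), a ratio of 246 with a 95% interval from the read counts of 43.7 to 9758. Both males were thus far above both females for these genes, and EM2 was above EM1 for each of them.

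Leucyl aminopeptidases of sperm were prominent. S-Lap7 was at 0 and 0.0174 RPKM in females, from 1 read, and 7.75 and 13.5 RPKM in males (adjusted p = 0.0044). S-Lap1 was at 0.121 and 0.087 RPKM and 10.4 and 18.2 RPKM (log2 difference 6.09, standard error 0.32, adjusted p = 0.0049), and loopin-1, of the same enzyme family, at 0.0493 and 0.0533 RPKM and 9.35 and 16 RPKM (log2 6.35, adjusted p = 0.00428). In all 3 the values of EM2 were above those of EM1, as for ocn. The testis tubulin gene betaTub85D was at 0.111 and 0.12 RPKM in females and 2.81 and 2.05 RPKM in males (log2 3.54, adjusted p = 0.00616). The little-known testis genes CG8701, CG12861 and CG4836 had the smallest adjusted p of the list (0.00373 each). CG8701 was at 0.0479 and 0.069 RPKM in females and 10.4 and 13.4 RPKM in males, CG12861 at 0.0922 and 0.0664 RPKM and 8.85 and 11.6 RPKM, and CG4836 at 0.156 and 0.159 RPKM and 11.1 and 13.5 RPKM. The study picked several of these genes from the same libraries, so that the counts of the testis list are not independent evidence of direction. The part of testis RNA in the male calls was not tested. When the listed genes of reproductive organs, fat body and oenocytes (163 of those tested) were left out, 675 male-biased and 215 female-biased genes remained of 11667. Because only listed genes were removed, this count cannot show what part of the remaining calls came from those organs.

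Other genes at the top of the male calls were on no list. CG31740 was at 0 and 0.122 RPKM in females, from 2 reads, and 16.8 and 20.7 RPKM in males (adjusted p = 0.00554), a ratio of 267 with a 95% interval from the read counts of 73.5 to 2210. CG10252 was at 0.0615 and 0 RPKM in females, from 1 read, and 10.8 and 18.5 RPKM in males (adjusted p = 0.00506). CG12699 was at 0.0668 and 0.0963 RPKM and 14.4 and 20 RPKM (log2 difference 6.56, standard error 0.24, adjusted p = 0.00373). All 3 had male levels above the geometric means of the testis list (2.54 RPKM in EM1 and 2.88 in EM2), and their tissue of origin was not tested. In the African males the same 3 genes were higher in AM1 than in AM2, at 6.01 and 2.59, 4.64 and 1.49 and 8.25 and 1.67 RPKM.

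Genes of the accessory gland and ejaculatory duct, which supply the proteins of the seminal fluid, were male-biased too. Met75Ca was at 0.635 and 0.457 RPKM in females and 50.3 and 40.5 RPKM in males (log2 difference 6.14, standard error 0.19, adjusted p = 0.00373). Dup99B, a gene for a seminal peptide of the ejaculatory duct, had 0 reads in females and was at 4.33 and 4.57 RPKM in males, at least 21.5-fold higher (adjusted p = 0.00373). Acp54A1 was at 0.35 and 0.252 RPKM in females and 4.92 and 7.04 RPKM in males (log2 3.91, adjusted p = 0.00615), and EbpII, of the ejaculatory bulb, at 0.144 and 0.208 RPKM and 2.8 and 4.6 RPKM (log2 3.75, adjusted p = 0.00816). These are levels of a few reads in females and of many more in males. Of 40 listed genes 7 were called higher in males and 0 in females (12 and 0 by the unadjusted p), and the median log2 difference was 1.04. That median depended on each library, since it was 1.82 without EF1, 0.063 without EF2, 0.49 without EM1 and 1.70 without EM2. The geometric mean of the list was 0.70 RPKM in EF1, 0.198 in EF2, 1.70 in EM1 and 0.892 in EM2, so that EF1 lay close to EM2. The part of such RNA in the other male calls was not tested.

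Of 27 odorant-binding protein genes tested, which encode small carriers of hydrophobic compounds, 3 were called higher in males and 1, Obp99a, in females. Obp51a had 0 reads in females and was at 2.37 RPKM in both males, at least 14.7-fold higher (adjusted p = 0.00428). Obp44a was at 0.383 and 0.473 RPKM in females and 3.5 and 3.99 RPKM in males (log2 2.87, adjusted p = 0.00616), and Obp56a at 0 and 0.0675 RPKM and 0.454 and 0.628 RPKM (log2 2.30, adjusted p = 0.0322). Obp56a had only 1 read in females. Of 31 genes of serpins and other peptidase inhibitors, Spn77Bc and Spn77Bb were called higher in males and 0 in females, near the shares of all genes tested. Spn77Bc was at 0.249 and 0.256 RPKM and 1.69 and 2 RPKM (log2 2.46, adjusted p = 0.0086) and Spn77Bb at 0.176 and 0 RPKM and 1.37 and 1.92 RPKM (log2 3.38, adjusted p = 0.0345). In Africa both serpins and Obp51a were higher in AM2 than in AM1, the order that Met75Ca and Dup99B also showed, with Met75Ca at 56.6 and 207 RPKM and Obp51a at 2.87 and 18.7 RPKM.

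The gene with the largest fitted log2 difference (on the RPKM + 0.1 scale) did not follow sex in the other population. Several other genes had larger ratios of reads, among them S-Lap7 and CG10252 (1072 and 579), each on 1 read in females. lcs was at 2.68 and 1.29 RPKM in European females and 312 and 565 RPKM in European males (log2 difference 7.74, standard error 0.44, adjusted p = 0.00506), but at 1.96 and 806 RPKM in the African females and 4.59 and 367 RPKM in the African males. AF2 was thus the library with the highest level, and AM1 was as low as AF1, EF1 and EF2. whe was at 8.1 and 3.07 RPKM in European females and 410.4 and 725 RPKM in European males (log2 6.74, adjusted p = 0.00732), and at 12.1 and 3279 RPKM in African females and 9.88 and 1085 RPKM in African males. CG16826 was at 5.69 and 4.26 RPKM and 323 and 719 RPKM in Europe (log2 6.58, adjusted p = 0.00585), and at 9.35 and 2255 RPKM and 7.28 and 763 RPKM in Africa. These 3 genes had the same order of libraries, high in EM1, EM2, AF2 and AM2 and low in EF1, EF2, AF1 and AM1. When all 8 libraries shared an estimate of the spread, their adjusted p was 0.215 for lcs, 0.273 for whe and 0.274 for CG16826, so that the calls rest on the European libraries alone. Altogether 13 of the 719 male-biased genes were more than 16-fold apart between the African female libraries. All 13 were higher in AF2 than in AF1 and higher in AM2 than in AM1, by more than 16-fold for 9 of them.

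**Figure D3:**
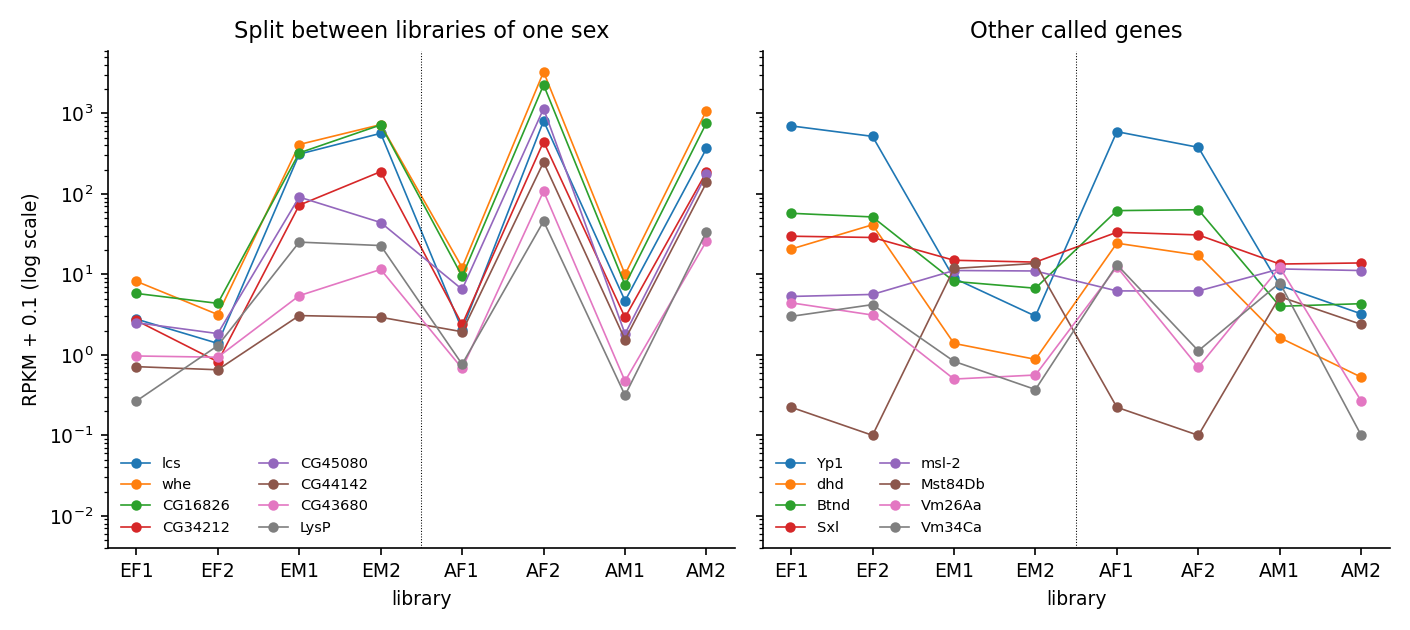
RPKM plus 0.1 on a log scale in the 8 libraries (E, Europe; A, Africa; F, females; M, males), with lines only joining the values of a gene. On the left, 8 of the 13 male-biased genes that differ more than 16-fold between AF1 and AF2 are higher in EM1, EM2, AF2 and AM2 than in EF1, EF2, AF1 and AM1. For CG44142 the European males, at 2.97 and 2.83 RPKM, are only little above AF1 (1.84 RPKM) and AM1 (1.45 RPKM). On the right, 8 other called genes are shown, of which the eggshell genes Vm26Aa and Vm34Ca are as high in AM1 as in the females.

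Among these 13 genes, named here after their values were seen, were CG34212 at 2.57 and 0.722 RPKM in European females and 72.3 and 189 RPKM in European males, and CG45080 at 2.41 and 1.74 RPKM and 91.2 and 44 RPKM. The maltase gene Mal-B1 was at 0.819 and 1.14 RPKM and 11.7 and 19.1 RPKM. Lysozyme genes, listed for midgut, belonged to the same set: LysP was at 0.167 and 1.2 RPKM in European females and 25 and 22.7 RPKM in European males (log2 5.35, adjusted p = 0.0247), and at 0.664 and 45.6 RPKM in African females. LysB, LysD and LysE were also called higher in males, with LysD at 2.13 and 2.54 RPKM and 8.49 and 7.07 RPKM (log2 1.69, adjusted p = 0.00877). LysE was called in 3 of 9 alternatives and LysB in 6 of 10, and in the fit over 8 libraries 0 of the midgut genes were called (adjusted p = 0.702 for LysB and 0.759 for LysE). These 4 lysozymes were the only genes called of 42 listed for midgut, whose median log2 difference was -0.26. The lysozyme genes are close copies of each other, and how their shared reads were counted is uncertain.

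Some female-biased eggshell genes also split the African libraries. Vm26Aa, which encodes a protein of the vitelline membrane, was at 4.33 and 3.02 RPKM in European females and 0.4 and 0.461 RPKM in European males (log2 -2.81, adjusted p = 0.00853). In Africa it was at 12.3 and 0.603 RPKM in females and 12.1 and 0.166 RPKM in males, so that AM1 was level with AF1. Vm34Ca was at 2.9 and 4.11 RPKM and 0.73 and 0.271 RPKM in Europe (log2 -2.68, adjusted p = 0.0355) and at 13.1 and 1.02 RPKM and 7.74 and 0 RPKM in Africa. Of the 235 female-biased genes 12 were more than 4-fold apart between the African males, 11 of them higher in AM1 and 10 of these also higher in AF1 than in AF2. The split thus followed the replicate number in both African sexes. Over 8772 genes, the log2 difference between African females 1 and 2 correlated with that between African males 1 and 2 at a Pearson r of 0.518 (Spearman 0.119), against 0.09 (Spearman 0.129) over 8843 genes in Europe. What the African replicates of a number share was not tested.

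Some detoxification genes were male-biased, by smaller factors than the genes above. Glutathione S-transferases conjugate foreign compounds to glutathione, and 8 of the 35 tested were called higher in males and 0 in females (15 and 1 by the unadjusted p), with a median log2 difference of 0.29. GstE6 was at 203 and 185 RPKM in females and 330.4 and 309 RPKM in males (log2 difference 0.72, standard error 0.065, adjusted p = 0.00877). GstT3 was at 168 and 167 RPKM and 233 and 221 RPKM (log2 0.44, adjusted p = 0.0122), and GstE5 at 71 and 63.7 RPKM and 102 and 92.3 RPKM (log2 0.53, adjusted p = 0.0258). The steepest of the family was GstD2, at 5.79 and 4.17 RPKM in females and 20.9 and 16.5 RPKM in males (log2 1.90, adjusted p = 0.0122), so that its male libraries exceeded the female ones more than 2-fold. The other called members were GstE7, GstD9, GstE3 and GstD5, with log2 differences of 0.48, 0.38, 0.33 and 1.73. Without limma's intensity trend 1 of the 35 was called.

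Cytochrome P450 enzymes oxidize toxins, fatty acids and hormones, and 8 of 80 genes tested were called higher in males and 2 in females, with a median log2 difference of 0.061. Of these 10, 5 belong to the Cyp4 family. The share of Cyp4 genes among the 80 tested was not counted, so this is no result about the family. Cyp4d14 was at 16.2 and 14.8 RPKM in females and 58 and 51.7 RPKM in males (log2 difference 1.82, standard error 0.08, adjusted p = 0.004), and Cyp4s3 at 35.6 and 37.6 RPKM and 73.4 and 78.4 RPKM (log2 1.05, adjusted p = 0.00548). Cyp4ae1, on the X chromosome like these 2, went the other way, at 14.9 and 13.9 RPKM in females and 5.37 and 5.31 RPKM in males (log2 difference -1.41, standard error 0.081, adjusted p = 0.00514). Replicates of a sex lay close together for each of the 3, and the sexes were far apart. The abundant Cyp4e2 was at 434 and 421 RPKM and 623 and 572 RPKM (log2 0.48, adjusted p = 0.0182). Cyp6a2, known for insecticide resistance, was at 231 and 258 RPKM in females and 421 and 359 RPKM in males (log2 0.67, adjusted p = 0.0254). Without the intensity trend 4 P450 genes were called higher in males and 1 in females. The second female-biased P450 gene was Cyp6a19 (log2 difference -0.51).

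UDP-glycosyltransferases, which attach sugars to lipophilic compounds, had 2 of 33 genes called higher in males and 1 in females, a share near that of all genes, and 0 without the intensity trend. Ugt35C1 was at 316 and 312 RPKM in females and 493 and 448 RPKM in males (log2 difference 0.58, standard error 0.059, adjusted p = 0.0119). Ugt37B1 was at 19.5 and 19.4 RPKM and 29.2 and 35.1 RPKM (log2 0.71, adjusted p = 0.0276), and Ugt36E1 was the female-biased one at 23.4 and 21.7 RPKM and 17.1 and 16.5 RPKM (log2 -0.42, adjusted p = 0.0309). Of 16 esterase and hydrolase genes, 5 were called higher in males and 1 in females, with a median log2 difference of 0.014. Without the intensity trend 1 was called in each direction. The juvenile hormone epoxide hydrolase genes, which break down juvenile hormone, were all 3 male-biased. Jheh1 was at 99.1 and 101 RPKM in females and 142 and 133 RPKM in males (log2 0.46, adjusted p = 0.0122), Jheh2 at 94 and 96.1 RPKM and 141 and 123 RPKM (log2 0.47, adjusted p = 0.0309), and Jheh3 at 64.8 and 63.8 RPKM and 84.2 and 80 RPKM (log2 0.35, adjusted p = 0.0213). For the carboxylesterase genes the directions differed: alpha-Est6 was at 16.3 and 18.3 RPKM and 27.6 and 28.3 RPKM (log2 0.69, adjusted p = 0.0149), whereas alpha-Est2 was at 3.28 and 3.09 RPKM and 1.16 and 1 RPKM (log2 -1.48, adjusted p = 0.0146).

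Of 21 ABC and organic ion transporter genes, MRP and Mdr49 were called higher in males and 0 in females. Both encode ABC pumps that export conjugates and drugs. MRP was at 104 and 106 RPKM in females and 142 and 139 RPKM in males (log2 difference 0.42, standard error 0.043, adjusted p = 0.0119), and Mdr49 at 85 and 85.6 RPKM and 117 and 129 RPKM (log2 difference 0.53, standard error 0.067, adjusted p = 0.0198). For both, the female libraries were nearly level, and both male libraries lay above them by more than the gap between replicates. Both calls were lost without the intensity trend.

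**Figure D4:**
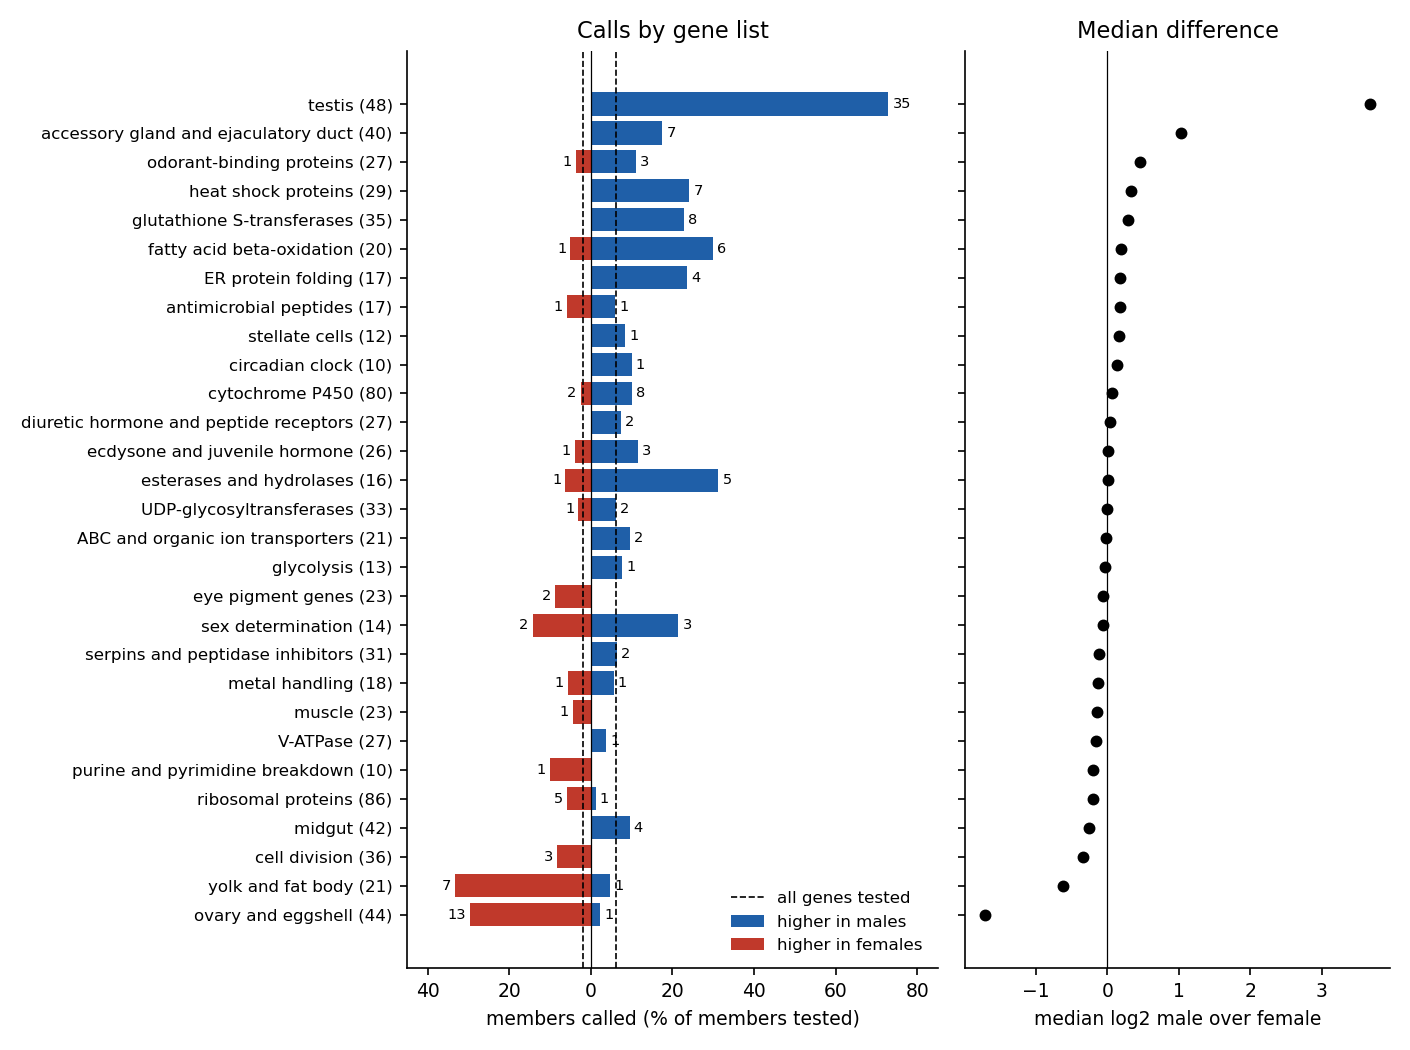
Left, members of each list called higher in males (blue, right) and in females (red, left) as a percentage of the members tested, with the numbers called beside the bars, members tested in parentheses and the shares of all genes tested (6.08% and 1.99%) as dashed lines. Right, the median log2 difference (male over female) of the same lists, from 3.68 for testis to -1.72 for ovary and eggshell; lists with at least 10 members tested and at least 1 called are shown.

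Among the genes of purine and pyrimidine breakdown, a gene of the pyrimidine branch was female-biased. pyd3, which encodes beta-ureidopropionase, the last enzyme of that pathway, was at 228 and 226 RPKM in females and 79.7 and 68.3 RPKM in males (log2 difference -1.62, standard error 0.078, adjusted p = 0.00428). It was the only gene called of the 10 listed, and Uro, in the same list, did not pass (log2 difference -0.21, adjusted p = 0.138). Genes of fatty acid beta-oxidation leaned to males, with 6 of 20 called higher in males, 1 in females and 18 with a positive log2 difference (median 0.19). Without the intensity trend 1 was called higher in males and 0 in females. The acyl-CoA oxidase genes Acox57D-p and Acox57D-d went in opposite directions: Acox57D-p was at 57.2 and 54.9 RPKM and 76.2 and 76.4 RPKM (log2 0.45, adjusted p = 0.0127), and Acox57D-d at 22.6 and 21.3 RPKM and 14.7 and 15.7 RPKM (log2 -0.53, adjusted p = 0.0231). These 2 are neighboring copies, and whether reads were split between them was not tested. CG9547, a glutaryl-CoA dehydrogenase gene, was at 135 and 135 RPKM and 170.4 and 176 RPKM (log2 0.36, adjusted p = 0.0206).

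Glycolysis had 1 of 13 genes called, a share near that of all genes. It was Hex-A, a hexokinase gene, at 69.4 and 73.2 RPKM in females and 105 and 99.9 RPKM in males (log2 difference 0.52, standard error 0.051, adjusted p = 0.0109). Eye pigment genes, whose transporters and enzymes also act in the pigment granules of the tubule, had 2 of 23 called higher in females and 0 in males. kar was at 91.9 and 104 RPKM in females and 60.9 and 63.5 RPKM in males (log2 -0.65, adjusted p = 0.0158), and pn at 10.7 and 10.6 RPKM and 8.25 and 7.71 RPKM (log2 -0.41, adjusted p = 0.0471). Of 18 genes of metal handling, Mvl, which encodes a transporter of divalent metals, was called higher in females at 51 and 49 RPKM and 38.8 and 39.5 RPKM (log2 -0.35, adjusted p = 0.0264). Fer3HCH, the mitochondrial ferritin gene, was at 0.205 and 0.197 RPKM in females and 0.794 and 1.32 RPKM in males (log2 1.91, adjusted p = 0.0347), on 3 and 4 reads in females. The call of pn held in 1 of 10 alternatives (adjusted p up to 0.188) and that of Fer3HCH in 6 of 9 (up to 0.072).

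Ribosomal protein genes were slightly lower in males nearly throughout, but few were called. Of 86 tested, 79 had a negative log2 difference, 76 had both female libraries above both male libraries (27.9% of all genes tested did) and 59 were higher in females at an unadjusted p under 0.05, whereas 5 were called higher in females and 1 in males. The median log2 difference was -0.20, and the sums over the list were 90274 RPKM in EF1, 91810 in EF2, 79589 in EM1 and 79023 in EM2. Voom called 18 higher in females, and limma without the intensity trend 1. RpS29 was at 746 and 768 RPKM in females and 582 and 597 RPKM in males (log2 difference -0.36, standard error 0.054, adjusted p = 0.0285), and sta, which encodes the ribosomal protein SA, at 1179 and 1237 RPKM and 958 and 941 RPKM (log2 -0.35, adjusted p = 0.0372). RpL37-1 was at 646 and 657 RPKM and 513 and 519 RPKM (log2 -0.34, adjusted p = 0.0276), so that the gap between the sexes was far wider than that between replicates. The 2 steep members were minor copies: RpS5b, known from ovary, was at 6.35 and 8.3 RPKM in females and 0.888 and 0.678 RPKM in males (log2 -3.07, adjusted p = 0.00615), and RpL10Aa had 0 reads in females and was at 0.76 and 0.932 RPKM in males, at least 10.4-fold higher (adjusted p = 0.00732).

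Few genes of the transport machinery of the tubule were called. Of 27 V-ATPase genes, 1 was called, the minor subunit gene Vha36-2, at 0.119 and 0.0854 RPKM in females and 0.498 and 0.63 RPKM in males (log2 1.72, adjusted p = 0.0299). It rested on 38 reads and was not called with voom (adjusted p = 0.0529). The other pump genes leaned to females with a median log2 difference of -0.16 for the list, and 12 were higher in females and 3 in males at an unadjusted p under 0.05. None of 14 ATP synthase genes was called by limma (3 were higher in females and 0 in males at an unadjusted p under 0.05, and 13 had a negative log2 difference). None of 14 principal cell genes was called by limma either (4 higher in females and 0 in males at an unadjusted p under 0.05). Voom called 0 genes of both lists. The geometric mean of the principal cell genes was 118 RPKM in EF1, 108 in EF2, 114 in EM1 and 107 in EM2, so that the sexes overlapped in this measure. Their sums did not overlap, at 8769 RPKM in EF1, 8665 in EF2, 7854 in EM1 and 7851 in EM2. Both females lay above both males for 7 of 14 principal cell, 16 of 27 V-ATPase and 11 of 14 ATP synthase genes. The reverse held for 2, 5 and 0 of them. Over all genes tested the shares were 27.9% and 26.4%. Of 12 stellate cell genes 1 was called, a share near that of all genes. ClC-a, the chloride channel gene of these cells, was higher in males at 77.2 and 80.9 RPKM and 94.4 and 98.4 RPKM (log2 0.29, adjusted p = 0.0483). Its call was lost in the fit that shared the spread over 8 libraries (adjusted p = 0.0836).

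Receptors of diuretic and other peptides had 2 of 27 genes called higher in males and 0 in females, near the shares of all genes tested (6.08% and 1.99%). Dh31-R, the receptor gene of the diuretic hormone DH31, was at 98.6 and 101 RPKM in females and 121 and 117 RPKM in males (log2 0.25, adjusted p = 0.0412). SPR, the sex peptide receptor gene, was at 11.4 and 13 RPKM and 17.1 and 16.4 RPKM (log2 0.46, adjusted p = 0.0468). Both differences were small, and both calls were lost in the fit over 8 libraries (adjusted p = 0.143 and 0.0595). NPFR, the neuropeptide F receptor gene, was at 51.5 and 47.5 RPKM in females and 48.3 and 87.8 RPKM in males and was not called (adjusted p = 0.499), since EM1 lay within the female range and EM2 far above it. Without EM2 its log2 difference was -0.043. The light sensor and clock gene cry was the only gene called of 10 of the circadian clock, at 211 and 208 RPKM in females and 266 and 272 RPKM in males (log2 0.36, adjusted p = 0.0196). gce, a juvenile hormone receptor gene, was called higher in females at 15.9 and 14.6 RPKM and 11.2 and 11.4 RPKM (log2 -0.43, adjusted p = 0.04).

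Of 17 listed genes of protein folding in the endoplasmic reticulum, 4 were called higher in males and 0 in females. Hsc70-3, the BiP gene, was at 157 and 156 RPKM in females and 247 and 238 RPKM in males (log2 difference 0.63, standard error 0.043, adjusted p = 0.00615), and Gp93, of the Hsp90 family, at 42.2 and 40.1 RPKM and 67.2 and 63.6 RPKM (log2 difference 0.67, standard error 0.054, adjusted p = 0.00741). Sil1, which exchanges nucleotides on BiP, was at 3.52 and 3.71 RPKM and 12.5 and 8.59 RPKM (log2 1.49, adjusted p = 0.0199), and the calreticulin gene Calr at 445 and 433 RPKM and 559 and 541 RPKM (log2 0.33, adjusted p = 0.0279). In all 4 genes the gap between the sexes exceeded that between replicates. Over the list 9 and 1 passed p under 0.05 before adjustment, the median log2 difference was 0.18, and 2 were called without the intensity trend. Of 29 heat shock protein genes 7 were called higher in males and 0 in females, but their direction as a list was less even, as the median of 0.33 became -0.027 without EF2 and -0.11 without EM1. Among them Hsp60C was at 0.166 and 0.154 RPKM in females and 2.83 and 2.66 RPKM in males (log2 3.45, adjusted p = 0.00526), Hsp60B at 0.0465 and 0.0335 RPKM and 1.69 and 2.11 RPKM (log2 3.83, adjusted p = 0.00603), and Hsp60D at 0.105 and 0.132 RPKM and 0.938 and 1.1 RPKM (log2 2.36, adjusted p = 0.0121). These 3 are minor copies of the mitochondrial chaperonin gene Hsp60A, and Hsp60B is needed in spermatogenesis.

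Of 17 genes of antimicrobial peptides 1 was called in each direction, where 6.08% and 1.99% of all genes tested were called higher in males and in females. Drs, which encodes the antifungal drosomycin, was at 198 and 295 RPKM in females and 686 and 935 RPKM in males (log2 difference 1.73, standard error 0.25, adjusted p = 0.0251), and so was more than 2-fold higher in the lower male library than in the higher female one. Dro, the drosocin gene, was at 2.51 and 2.74 RPKM in females and 0.659 and 0.741 RPKM in males (log2 -1.77, adjusted p = 0.0122). Its values rested on 10 to 56 reads per library.

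The sex determination pathway, in which Sxl acts on tra and msl-2 and tra on dsx, had called genes at all of these steps. Sxl was at 29.7 and 28.6 RPKM in females and 14.9 and 14.1 RPKM in males (log2 difference -1.0, standard error 0.059, adjusted p = 0.0052), and tra, whose functional protein is made only in females, at 11.9 and 12.4 RPKM and 9.16 and 8.52 RPKM (log2 -0.45, adjusted p = 0.0358). In males, dsx was higher at 12 and 14.4 RPKM against 6.79 and 7.92 RPKM in females (log2 0.83, adjusted p = 0.0338). msl-2, which encodes the male-limited protein of the dosage compensation complex and is repressed by Sxl protein in females, was at 5.21 and 5.53 RPKM in females and 11.1 and 10.9 RPKM in males (log2 difference 1.02, standard error 0.083, adjusted p = 0.00754). The libraries of a sex lay close together for Sxl, tra and msl-2, and further apart for dsx. da, a maternal activator of Sxl, was at 44.3 and 45.5 RPKM and 63.7 and 61.1 RPKM (log2 0.48, adjusted p = 0.0112). The remaining 9 of 14 listed genes were not called. The call of tra was lost with voom (adjusted p = 0.067), without the intensity trend (0.096) and in the fit over 8 libraries (0.179). Without the trend only Sxl and msl-2 were called. RPKM per gene do not separate the sex-specific splice forms of Sxl, tra and dsx. Of 7 dosage compensation genes only msl-2 was called.

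The X chromosome, present in 2 copies in females and 1 in males, held 82 of the 235 female-biased genes (34.9%), while 15.9% of the genes tested were X-linked. On the X 82 of 1883 genes (4.35%) were female-biased, compared with 152 of 9779 (1.55%) on the large autosome arms. Male-biased genes made up 5.31% of X-linked and 6.29% of autosomal genes. The median log2 difference was -0.038 on the X and -0.0050 on the autosomes. Female-biased shares were 4.62% and 1.63% with voom, 4.38% and 1.5% at the minimum of 100 reads, and 3.61% and 1.06% in the fit over 8 libraries. The shares are a description, since neighboring genes are not independent. Of 78 genes of the fourth chromosome 1 was called in each direction. Of 5 genes mapped to the Y 1, Ppr-Y, was called, at 0.0744 and 0.0536 RPKM in females and 0.505 and 0.343 RPKM in males (log2 1.66, adjusted p = 0.0372). It was named after its values were seen, and the source of its reads in females was not tested.

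At the other end of the expression range were called genes of very high level with small changes. The little-known gene CG42807 was at 2025 and 1543 RPKM in females and 4815 and 4222 RPKM in males (log2 difference 1.35, standard error 0.16, adjusted p = 0.0156), the largest factor among the 5 most abundant male-biased genes. In Africa it was at 2361 and 814 RPKM in females and 3765 and 5807 RPKM in males. CG15155 was at 1891 and 1851 RPKM and 2732 and 2475 RPKM (log2 0.48, adjusted p = 0.0336), and CG9512, an oxidoreductase gene of the glucose-methanol-choline family, at 1164 and 1259 RPKM and 1859.5 and 1930.5 RPKM (log2 0.65, adjusted p = 0.0151). CG15093, which encodes a dehydrogenase of valine breakdown, was at 658 and 666 RPKM and 849 and 844 RPKM (log2 0.36, adjusted p = 0.025), and the electron carrier gene Cyt-b5 at 549 and 562 RPKM and 679 and 671 RPKM (log2 0.28, adjusted p = 0.0404). On the female side CG17751, a gene of the organic cation transporter family, was at 667 and 787 RPKM in females and 493 and 521 RPKM in males (log2 -0.51, adjusted p = 0.0489), and Rack1, a scaffold on the ribosome, at 802 and 799.8 RPKM and 676 and 657 RPKM (log2 -0.26, adjusted p = 0.0494). The calls of Rack1, CG17751 and RpS27 lay near the threshold and were lost in several alternatives.

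Several lists had no call by limma in either direction, namely tyrosine and tryptophan breakdown, gluconeogenesis and trehalose, lipid storage and synthesis, hydrocarbon desaturases and elongases, peptidoglycan recognition, Turandot stress peptides, antioxidant defense, oenocytes, hindgut, neurons, hemocytes and trachea. The antioxidant genes nevertheless leaned to males, with 17 of 22 positive and 9 higher in males against 1 in females at an unadjusted p under 0.05. Voom called 1 of them, higher in males. For the other lists the numbers at an unadjusted p under 0.05 were 0 to 2 in males and 0 to 3 in females, and voom called 0. Of 23 muscle genes, TpnC47D, a troponin C gene, was called higher in females at 9.71 and 8.72 RPKM and 4.96 and 4.65 RPKM (log2 -0.92, adjusted p = 0.0136).

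The European differences were then set beside those of the African population, which shares no library with them. Of the 602 European male-biased genes tested in Africa, 555 had a positive log2 difference there, and of the 234 female-biased genes 220 had a negative one. For 544 of the 719 and 169 of the 235, both African libraries of the same sex lay above both of the other, as they did for 22.0% and 26.2% of all genes tested in Africa. Few of them were called in Africa, 9 male-biased and 14 female-biased genes, where 64 of 11632 genes (0.55%) were called at all, 46 higher in males (0.395%) and 18 in females (0.155%). The African median log2 difference was 0.97 for the European male-biased genes, whose European median was 2.26, and -0.49 for the female-biased genes, whose European median was -0.70. The genes were chosen on the European values, which alone sets the European medians apart from 0. Across the 836 genes called in Europe and tested in both, Pearson's r of the log2 differences was 0.819, and across all 11373 genes tested in both it was 0.548. These r describe genes, which are not independent. In 44 male-biased genes an African female library reached the lower European male value, and in 19 female-biased genes an African male library reached the lower European female value.

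**Figure D5:**
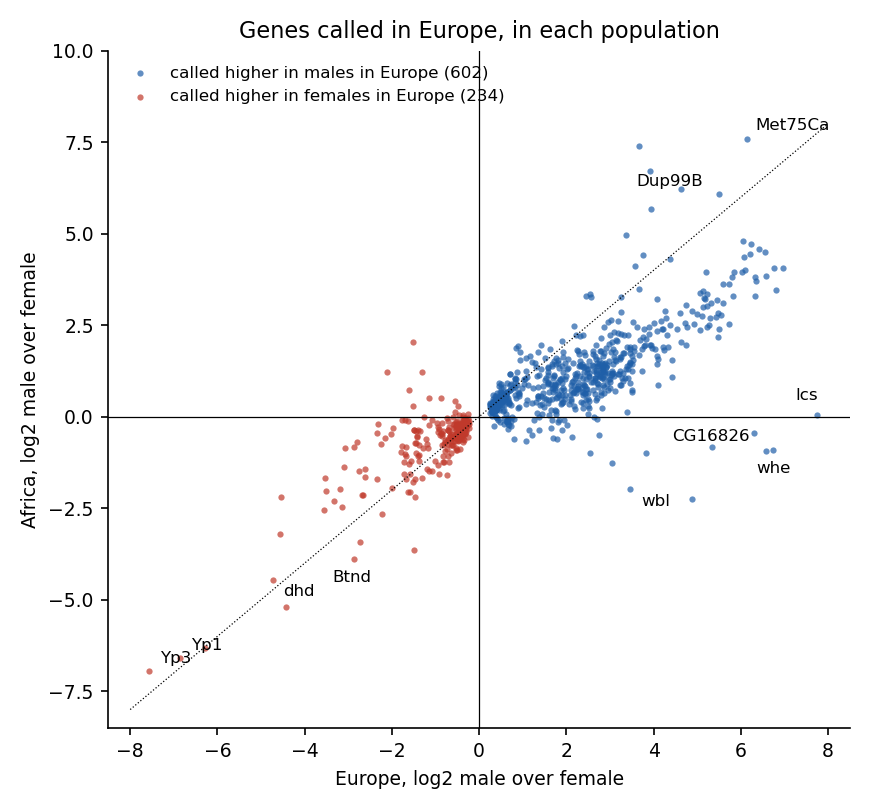
Log2 difference (male over female) in Europe (x axis) and Africa (y axis) of the 836 genes called in Europe and tested in both populations, in blue where called higher in males (602) and in red where called higher in females (234); the dotted line marks equal values. Most blue points lie between 0 and the dotted line, and lcs, whe and CG16826 lie near or below 0 in Africa.

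A direct test of the difference, the sex-by-population term over the 8 libraries, called 7 of 12580 genes (0.0556%), 2 with a larger male excess in Europe (0.0159%) and 5 with a larger one in Africa (0.0397%). The European-side genes were sel and CG15742. sel, of the endoplasmic reticulum, was at 24.3 and 21.7 RPKM in European females and 63 and 61.6 RPKM in European males (log2 difference 1.44, standard error 0.07, adjusted p = 0.00428), and at 12.9 and 13 RPKM and 16.5 and 15.7 RPKM in Africa. The term for sel was 1.09 (standard error 0.091, adjusted p = 0.0319). CG15742 was at 45.7 and 45 RPKM and 73.6 and 69.2 RPKM in Europe (log2 0.65, adjusted p = 0.00728) and at 17.3 and 16.5 RPKM and 15.4 and 13.7 RPKM in Africa, where males were not above females. CG4949 had a similar pattern, at 83.4 and 86 RPKM and 131 and 135 RPKM in Europe (log2 0.65, adjusted p = 0.00709) and 30.9 and 27.7 RPKM and 27.1 and 25.9 RPKM in Africa, but its term was not called (adjusted p = 0.0813). wbl, a gene of protein folding in the endoplasmic reticulum, was at 0.0388 and 0.112 RPKM in European females and 2.26 and 1.43 RPKM in European males (log2 3.47, adjusted p = 0.0121), whereas African females, at 1.28 and 0.426 RPKM, were above African males, at 0.0998 and 0.125 RPKM. Its term was not called either (5.44, adjusted p = 0.155), nor was its African difference (adjusted p = 0.245).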

How the data were processed

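Poly(A) RNA of adult tubules was sequenced in 8 tagged libraries on a single lane (single reads of 50 bases). The authors mapped reads to the FlyBase r5.54 transcriptome with NextGenMap, counted a read for its gene whatever the isoform, and deposited RPKM per gene over the longest transcript. Every RPKM came out as a whole number of reads (100% of values, tolerance 0.01), so reads were worked back. Depth was 19528634 (EF1), 27099855 (EF2), 20133218 (EM1) and 23275587 (EM2) reads. A read is worth less RPKM in deeper libraries, and intervals from reads cover counting error only.

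Samples were grouped by the labels for sex and population. Genes with at least 12 reads over the 4 European libraries were tested with limma 3.58.1 in R 4.3.3 on log2(RPKM divided by a TMM factor + 0.1), with an intensity trend and Benjamini-Hochberg adjustment over all genes tested (5%). TMM factors (trims of 30% and 5%) were 0.993 to 1.007. The African comparison and the sex-by-population term were fitted alike. The files hold RPKM, so the count test that had been planned for counts was not used. The procedure was tested on simulated data.

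Of 13942 genes, 13584 were named by gene ID and 262 by CG number. Chromosome arms are those of the files. Coordinates and sequences were not used here, because the annotation supplied is FlyBase release 6.

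The 44 gene lists, the comparison and the named genes were chosen with earlier results of these data known. Named were the 10 largest called differences in each direction (no overlap, at least 1 RPKM in the higher sex), the 5 most abundant called genes in each direction, up to 4 called members per list with the smallest adjusted p, the 5 smallest adjusted p in each direction of the sex-by-population term, and genes the study names for sex bias. Lists are described by counts and medians only, and 1 named gene is not reported here. Alternatives were no TMM factor, pseudocounts of 0.01 and 1, no filter, at least 12 reads over 8 libraries, at least 100 reads, voom on reads, no trend, all 8 libraries in 4 groups, a replicate block, and each library left out. Where a group had 0 reads a fold was computed against 3 reads over that group.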

Additional observations from a re-analysis of the deposited data

Results flagged for a closer look

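The sex difference in Europe departed from that in Africa, by the sex-by-population term of limma over 8 libraries, in 7 of 12580 genes (0.0556%). In 4 of these the African males were set apart from the other libraries. Cyp303a1, a P450 gene that acts in sensory bristles, was at 1.17 to 1.43 RPKM in the 4 European libraries, but at 1.34 and 1.18 RPKM in African females and 25.2 and 29.2 RPKM in African males (Europe less Africa -4.43 on the log2 scale, standard error 0.23, adjusted p = 0.00792). The GATA factor gene pnr was at 0.213 and 0.236 RPKM and 0.193 and 0.203 RPKM in Europe, and at 0.128 and 0.166 RPKM and 4.74 and 4.01 RPKM in African females and males (-4.34, adjusted p = 0.0281). So both genes were at a level near that of females in every library other than AM1 and AM2.

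The amylase genes Amy-d and Amy-p, near-identical copies that may share reads, differed by -6.11 (adjusted p = 0.0319) and -5.97 (adjusted p = 0.0319). Amy-d was at 2.64 and 3.58 RPKM in European females and 3.27 and 2.06 RPKM in European males, and at 4.89 and 3.7 RPKM and 350.2 and 177 RPKM in Africa, and Amy-p was at 3.95 and 4.33 RPKM and 5.14 and 2.94 RPKM in Europe, and at 4.74 and 3.34 RPKM and 325 and 169 RPKM in Africa. CG18180, a serine protease gene, was low in African females only, at 1.02 and 0.665 RPKM against 15.1 and 14.2 RPKM in African males, 13.5 and 13.7 RPKM in European females and 22.2 and 14.1 RPKM in European males (-3.65, adjusted p = 0.0422). The term was positive for sel (1.09, adjusted p = 0.0319) and CG15742 (0.84, adjusted p = 0.0421), whose values are given above. Over 8 alternatives, Cyp303a1 was called in 8 (adjusted p 0.00392 to 0.0465), pnr in 7, the amylase genes in 5 each, and sel, CG15742 and CG18180 in 4 each. In leaving out each of the 8 libraries in turn, Cyp303a1 was called in 4 of the fits, pnr and both amylase genes in 1 and the other 3 genes in 0.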

How the results depend on the processing

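Genes called in Europe numbered 719 in males and 235 in females. At the minimum of 100 reads the total and the male count moved by over 1.5 times (506 in all, 333 in males), whereas 173 in females did not. Without the intensity trend 543 were called (464 and 79). In the other alternatives the totals were 706 to 1050 (voom on the reads 891, 643 and 248), and male-biased genes were the majority in each. Leaving out a library gave 0 to 78 calls (0 to 71 in males, 0 to 7 in females). Deviations of same-numbered libraries correlated weakly across genes in Europe, at 0.09 (Spearman 0.129), and pairing in a subset of genes was not tested. In Africa, whose libraries enter the sex-by-population term, such deviations correlated at 0.518 (Spearman 0.119). With the replicate block 736 and 314 genes were called. The sex-by-population term called 7 genes, 2 without a composition factor, 1 with voom, 3 without the trend, 7 with the replicate block (5 of them shared) and 0 to 9 with a library left out. Signs turned only in genes that were not called and with a library left out: leaving out single libraries gave log2 differences of -0.20 to 0.066 for Cyp303a1, -0.55 to 0.078 for Amy-d, -0.47 to 0.30 for Amy-p, -0.043 to 0.84 for NPFR and -0.47 to 0.12 for sNPF-R, the turned sign coming without European female replicate 1 for Cyp303a1 and sNPF-R and without European male replicate 2 for the others. In all, the 124 named genes gave 1157 repeats on the same side of the threshold, 554 lost calls (410 of them with a library left out), 4 gained calls and these 5 turned signs. The cause was not tested. Depth limits genes below 1 RPKM, where 383 male-biased genes lay.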

Other observations

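Several male-biased genes of low level are duplicate copies of abundant tubule genes that were not called. These pairs were picked after their values were seen, each because its minor copy was called. Minor copies that were not called were left out, so the counts below are no result about minor copies. Below 1 RPKM, 383 of all 3626 genes tested were male-biased and 27 female-biased. Scsalpha2 had 0 reads in European females and was at 1.25 and 2.03 RPKM in males, at least 30.8-fold higher (adjusted p = 0.00732), while Scsalpha1, the main gene of this subunit of succinyl-CoA synthetase, was at 132 and 139 RPKM in females and 131 and 133 RPKM in males (log2 -0.041, adjusted p = 0.698). Pglym87 was at 0.0472 and 0.068 RPKM in females and 2.47 and 2.06 RPKM in males (log2 3.91, adjusted p = 0.00554), and the glycolytic phosphoglycerate mutase gene Pglym78 at 221 and 231 RPKM and 203 and 202 RPKM (log2 -0.16, adjusted p = 0.136). TrxT, a thioredoxin gene of the testis, was at 0.277 and 0.266 RPKM and 3.81 and 4.65 RPKM (log2 3.54, adjusted p = 0.0052), beside 345 and 346 RPKM and 280.1 and 341 RPKM for Trx2. Porin2 was at 0.318 and 0.36 RPKM and 2.38 and 3.39 RPKM (log2 2.75, adjusted p = 0.00962), and porin, the mitochondrial channel gene, at 553 and 511 RPKM and 521 and 491 RPKM. Of 18 such pairs, 16 minor copies were male-biased and 2 (RpS5b and alphaTub67C) female-biased, with mean levels of 0.189 to 5.25 RPKM. Of the 18 partners, at 67.0 to 909 RPKM, 17 were not called and 1, Hex-A, was male-biased. Reads shared between copies were not assessed.

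The following genes were also named after their values were seen, belong to no list and bear no statement on a group. CaBP1, a disulfide isomerase gene, was at 44.5 and 45.9 RPKM in females and 103 and 87.2 RPKM in males (log2 difference 1.07, standard error 0.086, adjusted p = 0.00741). P58IPK, a cochaperone gene of BiP, was at 32.2 and 33.6 RPKM and 47.4 and 49.7 RPKM (log2 0.56, adjusted p = 0.0122), and Manf, which is induced by stress of the endoplasmic reticulum, at 52 and 49.2 RPKM and 75.7 and 71.3 RPKM (log2 0.54, adjusted p = 0.0119). The translocon gene Sec61alpha was at 98.2 and 103 RPKM and 104 and 103 RPKM and the main disulfide isomerase gene Pdi at 204 and 197 RPKM and 217 and 227 RPKM, and both were not called. Higher in females was nop5, a gene of the nucleolus, at 17.4 and 18.7 RPKM in females and 11 and 12.1 RPKM in males (log2 -0.64, adjusted p = 0.0218), as were Nop56 at 20.2 and 21.4 RPKM and 13.8 and 15 RPKM (log2 -0.53, adjusted p = 0.0273), and the growth regulator gene Myc at 6.89 and 6.91 RPKM and 4.28 and 4.46 RPKM (log2 -0.65, adjusted p = 0.0273). The potassium channel gene KCNQ was male-biased, at 29.6 and 30 RPKM and 44 and 47.8 RPKM (log2 0.62, adjusted p = 0.0126), and the bestrophin channel gene Best1 female-biased, at 47.9 and 51.1 RPKM and 32.5 and 36.8 RPKM (log2 -0.51, adjusted p = 0.0363).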
